A study of Mus musculus with 24 samples.

Results

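Interferon response genes are the genes that cells switch on when they sense interferon, and 9 of them were followed here through the injured mouse heart: Gbp3, Gbp2, Irf1, Irf7, Isg15, Ifit1, Ifit2, Ifit3 and Usp18. They were chosen by name out of 11430 genes and other array features that were tested. Each gene was read from its brightest probe, the one with the highest mean signal in the heart channel. The value given is the log2 ratio of heart (Cy5) over a common reference (Cy3), so a ratio of 0 means equal signal in both. The Gbp3 probe carries the older name Gbp4 on the array and was assigned to Gbp3 through its RefSeq accession. Levels are compared between arrays for the same probe and never between genes.

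Type I interferons signal through a receptor that activates the factor ISGF3, of which IRF9 is a part. ISGF3 binds the interferon-stimulated response element (ISRE) of antiviral genes such as the Ifit genes, Isg15, Usp18 and Irf7. Interferon gamma instead acts through gamma-activated sites (GAS), as in Irf1, and the IRF1 protein then helps to switch on guanylate-binding proteins (the Gbp genes) and genes of antigen presentation. In the heart these genes can be expressed by muscle cells, endothelium, fibroblasts and immune cells, and interferon signalling after infarction is best known from macrophages.

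The promoters were searched for the letters of these elements, and the stretches that hold a match are printed first. They are RefSeq sequences on build GRCm38.p6, read 5′ to 3′ on the gene's strand, and capitals mark the matched letters. The motifs searched on both strands were GAAA, NN, GAAA read as 1 run for ISRE and TTCNNNGAA for GAS, in windows from 250 bases before to 50 bases after each annotated start. Where matches overlap, they are joined in 1 run of capitals.
Gbp3, chr3:142559979-142560034, plus strand: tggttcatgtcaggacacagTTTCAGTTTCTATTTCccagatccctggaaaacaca
Gbp2, chr3:142620584-142620633, plus strand: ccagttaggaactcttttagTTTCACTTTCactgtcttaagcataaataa
Ifit2, chr19:34550444-34550481, plus strand: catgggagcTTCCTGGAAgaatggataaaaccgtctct
Irf1, chr11:53769904-53769952, plus strand: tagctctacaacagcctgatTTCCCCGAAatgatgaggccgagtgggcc
Isg15, chr4:156200855-156200916, minus strand: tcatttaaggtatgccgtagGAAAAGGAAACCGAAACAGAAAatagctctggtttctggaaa
Ifit1, chr19:34640765-34640833, plus strand: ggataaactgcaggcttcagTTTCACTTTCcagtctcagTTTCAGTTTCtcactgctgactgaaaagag
Ifit3, chr19:34583353-34583436, plus strand: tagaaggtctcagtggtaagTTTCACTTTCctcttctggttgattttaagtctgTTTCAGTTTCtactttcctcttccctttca

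Gbp3, Gbp2, Isg15, Ifit1 and Ifit3 hold an ISRE match, that is 5 of the 8 genes found in the promoter table (Usp18 was not among them). Counted over windows, since a gene can have several annotated starts, 5 of the 11 windows of these genes hold an ISRE match, against 3.44% of all 32851 windows. A GAS match was found in Irf1 and Ifit2, in 2 of the 11 windows, against 8.3% of all windows. Gbp3 has a pair of overlapping ISRE matches starting 45 and 39 bases before the start site, and Isg15 has 3 overlapping ones starting 78, 72 and 66 bases before it. With the settings reported, Gbp3 had the largest mean fall after injury and Isg15 passed in no comparison, and both carry ISRE matches. With the log ratios written by Agilent's software, the mean falls of Usp18 (-1.80) and Gbp2 (-1.76) were larger than that of Gbp3 (-1.49). Isg15 then passed in the mean (limma adjusted p = 0.00284), though the target of its probe is uncertain. A match is a string of letters in the window and was not tested as a binding site, and no match says only that these letters are not in the window. Gbp3 and Gbp2 both lie on chromosome 3, and Ifit1, Ifit2 and Ifit3 lie together on chromosome 19.

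The hearts came from mice labelled MuRF1 Tg+ and from wild-type (MuRF1+/+) mice, strain-matched and aged 12 to 16 weeks, with 3 biological replicates per genotype and surgery. MuRF1 is a muscle ubiquitin ligase. The mice underwent either cardiac ischemia-reperfusion (I/R), a temporary tie of the left anterior descending artery, or sham surgery. Each heart gave a piece above and a piece below the tie or its would-be site. The 8 groups of 3 arrays were therefore Tg+ I/R, Tg+ sham, wild-type I/R and wild-type sham, each above and below. RNA pooled from whole day 1 pups of strain C57BL/6 was the reference on all 24 arrays, with no dye swap, so any dye bias stays in each ratio and is shared by the arrays compared. The sources used here give neither the promoter that drives the transgene nor how long reperfusion lasted. All 11 ventricular muscle markers examined were measured, and their mean log2 ratio lay between 3.13 and 4.11 in every group, as for heart against whole pup.

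The heart channel was weak on part of the I/R arrays. Between 9.90% and 38.3% of Cy5 spots were well above background on the 12 I/R arrays, against 34.6% to 43.3% on the 12 sham arrays. The share was under 25% on 5 arrays, which were Tg+ I/R below replicates 2 and 3, wild-type I/R above replicates 1 and 2 and wild-type I/R below replicate 1. The arrays sat on 7 slides. These facts touch every I/R result below. Results of members and counts for the lists of target genes are also given without the 5 arrays, and some of them by slide. Those of the upstream genes and of the cell markers are given with all arrays only.

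Gbp3 encodes an interferon-induced GTPase of the guanylate-binding family, which acts in cell-autonomous defence against intracellular pathogens. Above the tie in Tg+ hearts its log2 ratio was 0.21, 0.42 and 0.25 on the I/R arrays, against 1.67, 1.13 and 1.29 on the sham arrays. Above the tie in wild-type hearts it was 0.47, 0.067 and 0.63 after I/R, against 1.04, 1.51 and 1.58 after sham surgery. The I/R and sham arrays did not overlap in either genotype. Below the tie in Tg+ hearts Gbp3 was 0.30, 0.22 and 0.46 after I/R, against 1.81, 0.88 and 1.31 after sham surgery. Below the tie in wild-type hearts it was -0.025, 0.34 and 0.46 after I/R, against 1.59, 1.84 and 0.86 after sham surgery. Again no I/R array reached a sham array, and across the whole series the highest of 12 I/R values (0.63) lay under the lowest of 12 sham values (0.86).

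Gbp3 fell after I/R in all 4 comparisons. The log2 difference was -1.07 ± 0.24 (SE of the fit) in Tg+ above (limma adjusted p = 0.00778) and -1.004 ± 0.24 in Tg+ below (adjusted p = 0.00557). In wild type it was -0.99 ± 0.24 above (adjusted p = 0.0121) and -1.17 ± 0.24 below (adjusted p = 0.00846). Averaged over genotypes and pieces the level after I/R was 2.08-fold lower than after sham surgery (log2 -1.06 ± 0.12, adjusted p = 1.83e-06). The wild-type call above the tie was lost when any of 3 arrays was left out, I/R replicate 2, sham replicate 2 or sham replicate 3 of that piece (adjusted p up to 0.0705). The call below the tie was lost without wild-type sham below replicate 2 (adjusted p = 0.0584), and both Tg+ calls were kept in each of the 6 fits that left out 1 of their arrays. With Agilent's own log ratios, whose median over all features lay between -0.24 and -0.075 in these comparisons, only the wild-type call below was kept, at a difference of -2.25 (adjusted p = 0.0378). The other differences were then -1.40 in Tg+ above (adjusted p = 0.139), -0.96 in Tg+ below (0.189) and -1.36 in wild type above (0.126).

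Gbp2 belongs to the same family and is a classical target of interferon gamma. In Tg+ hearts below the tie its ratio was 0.010, -0.13 and 0.076 after I/R, against 1.33, 0.67 and 0.86 after sham surgery. In Tg+ hearts above the tie it was 0.45, 0.42 and 0.28 after I/R, against 1.20, 0.69 and 1.14. In wild-type hearts above the tie the values were 0.28, -0.11 and 0.60 after I/R, against 0.67, 0.90 and 1.15. In each of these 3 comparisons every I/R array lay below every sham array. In wild-type hearts below the tie the groups overlapped, with -0.0060, 0.38 and 0.68 after I/R, against 0.82, 1.31 and 0.67 after sham surgery. Gbp2 fell in Tg+ below, by 0.97 ± 0.22 on the log2 scale (adjusted p = 0.00334). There no I/R array was well above background, and the level was at least 1.89-fold lower. In the other comparisons the differences were -0.63 ± 0.22 in Tg+ above (adjusted p = 0.0541), -0.65 ± 0.22 in wild type above (0.0523) and -0.58 ± 0.22 in wild type below (0.122), so none passed. The mean over genotypes and pieces fell by 0.71 ± 0.11 (adjusted p = 3.38e-05), and Agilent's own log ratios put it at -1.76 (adjusted p = 4.75e-04), and at -2.94 in Tg+ below (adjusted p = 0.00432).

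Irf1 encodes a transcription factor that interferon gamma induces and that acts on Gbp promoters. It was the brightest of the 9 probes and well above background on all 24 arrays. In Tg+ hearts above the tie Irf1 was 0.52, 1.80 and 0.23 after I/R, against 0.84, 0.37 and 0.76 after sham surgery. In Tg+ hearts below the tie it was 0.30, 1.19 and 0.27 after I/R, against 0.97, 0.46 and 0.70 after sham surgery. Replicate 2 of each Tg+ I/R group stood well above the other two, so the groups overlapped. Wild-type hearts had 0.54, 0.090 and 0.69 after I/R above the tie, against 0.84, 0.83 and 0.69 after sham surgery. Below the tie they had 0.093, 0.14 and 0.40 after I/R, against 0.92, 0.81 and 0.57 after sham surgery. No wild-type I/R array reached a sham array of its piece, though above the tie the nearest values differed by less than 0.01. The Irf1 differences were 0.19 ± 0.30 in Tg+ above, -0.12 ± 0.30 in Tg+ below, -0.35 ± 0.30 in wild type above and -0.56 ± 0.30 in wild type below. None passed (smallest adjusted p = 0.31), nor did the mean of -0.21 ± 0.15 (adjusted p = 0.248). Without replicate 2 of Tg+ I/R above the difference there turned to -0.28 (adjusted p = 0.480) and the mean passed at -0.33 (adjusted p = 0.0193). A dimmer Irf1 probe, above background on 6 arrays, gave -0.20 in Tg+ above, where the bright probe gave 0.19. It gave -0.12 in Tg+ below, -0.17 in wild type above, -0.22 in wild type below and -0.18 in the mean, with limma p between 2.32e-06 and 0.0361 before adjustment. The probes thus differed in sign in Tg+ above alone, though the bright probe passed in none of these comparisons.

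**Figure D1:**
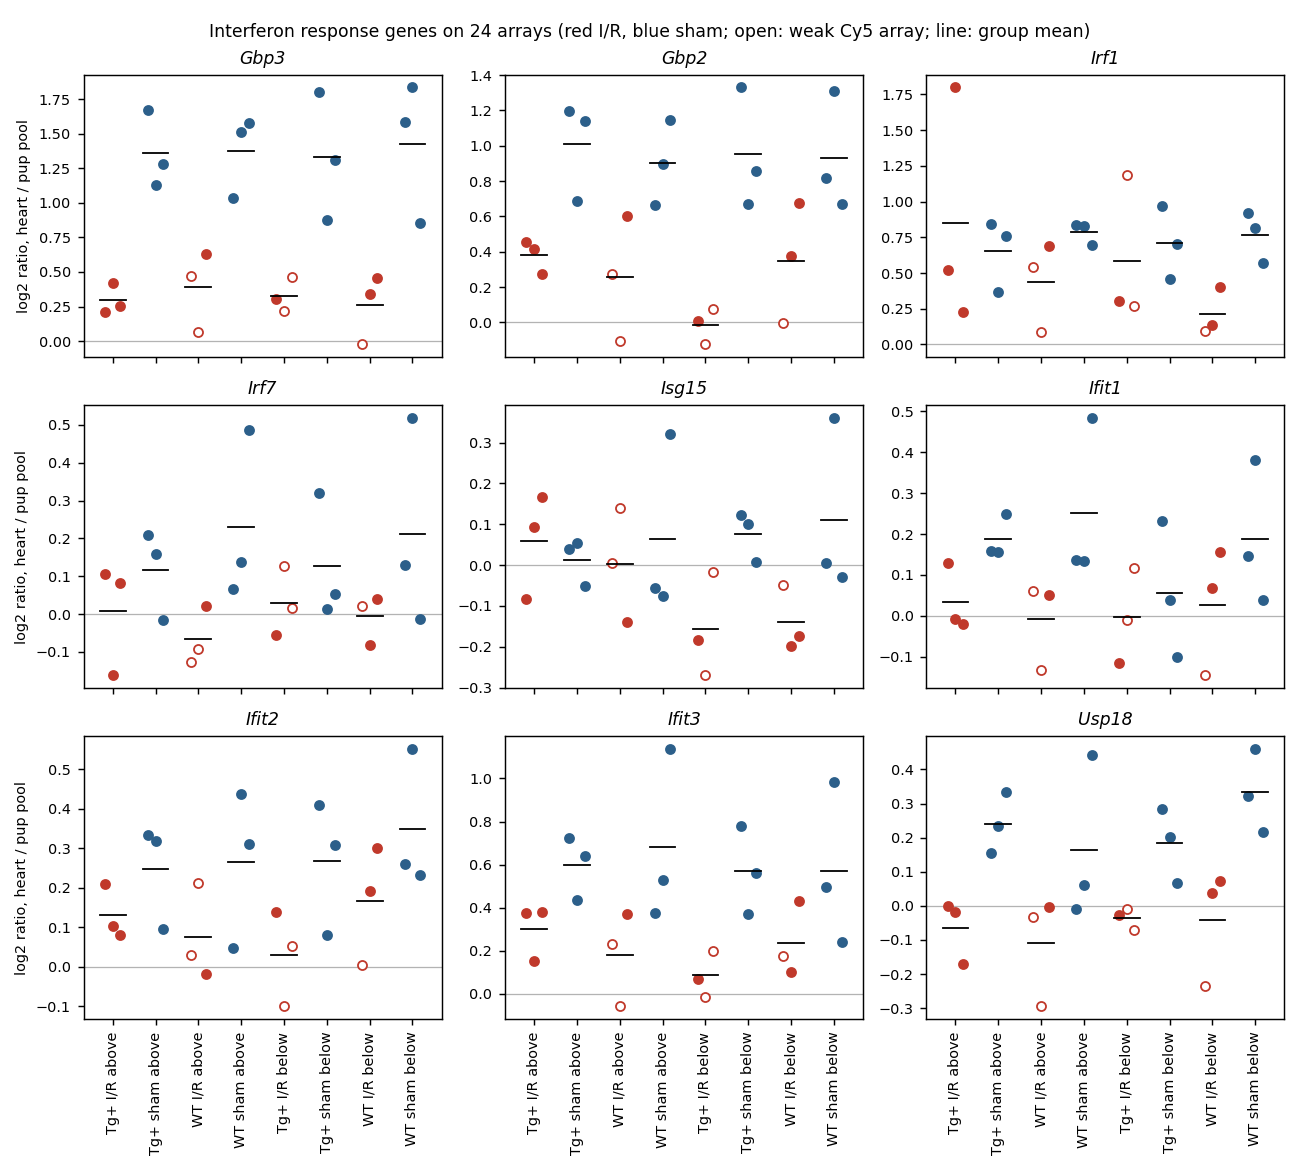
Each panel plots 1 gene, with the log2 ratio of heart over pup pool on the vertical axis and the 8 groups on the horizontal axis. Each point is 1 array, red for I/R and blue for sham, open where under 25% of Cy5 spots were well above background, and the line is the mean of 3 arrays. The 12 I/R values of Gbp3 (-0.025 to 0.63) lie under the 12 sham values (0.86 to 1.84), while those of Irf1 (0.090 to 1.80) span the sham values (0.37 to 0.97).

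Ifit3, whose product binds and stabilises its partner IFIT1 on foreign RNA in human cells, was the brightest of the Ifit probes. It was 0.38, 0.15 and 0.38 in Tg+ I/R above, against 0.72, 0.44 and 0.64 in Tg+ sham above. It was 0.069, -0.012 and 0.20 in Tg+ I/R below, against 0.78, 0.37 and 0.56 in Tg+ sham below. Neither pair of Tg+ groups overlapped. In wild type it was 0.23, -0.056 and 0.37 after I/R above, against 0.38, 0.53 and 1.14, and again the groups did not overlap. Below the tie in wild type it was 0.17, 0.10 and 0.43 after I/R, against 0.50, 0.98 and 0.24, with overlap. The Ifit3 differences lay between -0.50 and -0.30 and none passed on its own (smallest adjusted p = 0.0543, in Tg+ below). There no I/R array was well above background, and the 1.4-fold lower level is a measured value and no lower bound. The mean over genotypes and pieces fell by 0.41 ± 0.09 (adjusted p = 0.00154). The Tg+ below difference passed at -0.60 without background correction (adjusted p = 0.0309) and at -1.78 with Agilent's own log ratios (adjusted p = 0.0192), which put the mean at -1.19 (adjusted p = 0.00186). A second, dimmer probe annotated as Ifit3, which may measure the near-identical copy Ifit3b, gave a mean difference of -0.25.

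Usp18 removes ISG15 from proteins and also damps the type I interferon receptor. Over the 12 I/R arrays its ratio ran from -0.29 to 0.072 (median -0.022), against -0.010 to 0.46 (median 0.23) over the 12 sham arrays. It differed by -0.31 ± 0.12 in Tg+ above, -0.22 ± 0.12 in Tg+ below, -0.27 ± 0.12 in wild type above and -0.38 ± 0.12 in wild type below. None of these passed (smallest adjusted p = 0.0632). In Tg+ below no I/R array was well above background, and the 1.16-fold lower level is a measured value and no lower bound. The mean over genotypes and pieces fell by 0.29 ± 0.06 (adjusted p = 3.71e-04). The Usp18 probe was kept through sham groups alone, which favours a lower I/R value, so its falls support nothing further. Agilent's own log ratios put the mean at -1.80 (adjusted p = 3.13e-05), and Usp18 then passed in Tg+ above (-2.05, adjusted p = 0.0248), Tg+ below (-1.84, 0.0128) and wild type above (-1.83, 0.0343).

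The remaining 4 members were dim. Ifit1 and Ifit2, which bind viral RNA, fell in the mean by 0.16 ± 0.06 (adjusted p = 0.0260) and by 0.18 ± 0.06 (adjusted p = 0.0154), and neither passed in a single comparison. Irf7, the factor that amplifies type I interferon production, fell in the mean by 0.18 ± 0.07 (adjusted p = 0.0243), but it was well above background on 0 of 12 I/R arrays and 7 of 12 sham arrays. Its lower bounds were between 1.01-fold and 1.14-fold. Isg15, a ubiquitin-like protein that is attached to other proteins, ran from -0.27 to 0.17 on I/R arrays (median -0.067), against -0.076 to 0.36 on sham arrays (median 0.023). Its mean difference of -0.13 ± 0.06 did not pass (adjusted p = 0.0739), and it passed in none of the 4 comparisons. With Agilent's own log ratios the mean differences were -1.24 for Irf7, -1.08 for Ifit1 and -1.14 for Ifit2 (adjusted p from 0.00361 to 0.0134), and Isg15 fell in the mean (-0.66, adjusted p = 0.00284) and in Tg+ below (-1.13, adjusted p = 0.0129). Irf7, Ifit1 and Ifit2 were, like Usp18, kept through sham groups alone, so their falls support nothing further. The array's annotation puts the Isg15 probe on chromosome 17 whereas RefSeq has the gene on chromosome 4, so its target is uncertain. Without the 5 weak arrays the mean calls of Irf7, Ifit1 and Ifit2 were lost (adjusted p = 0.0907, 0.0812 and 0.0804), and Isg15 gave -0.18 (adjusted p = 0.0469).

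**Figure D2:**
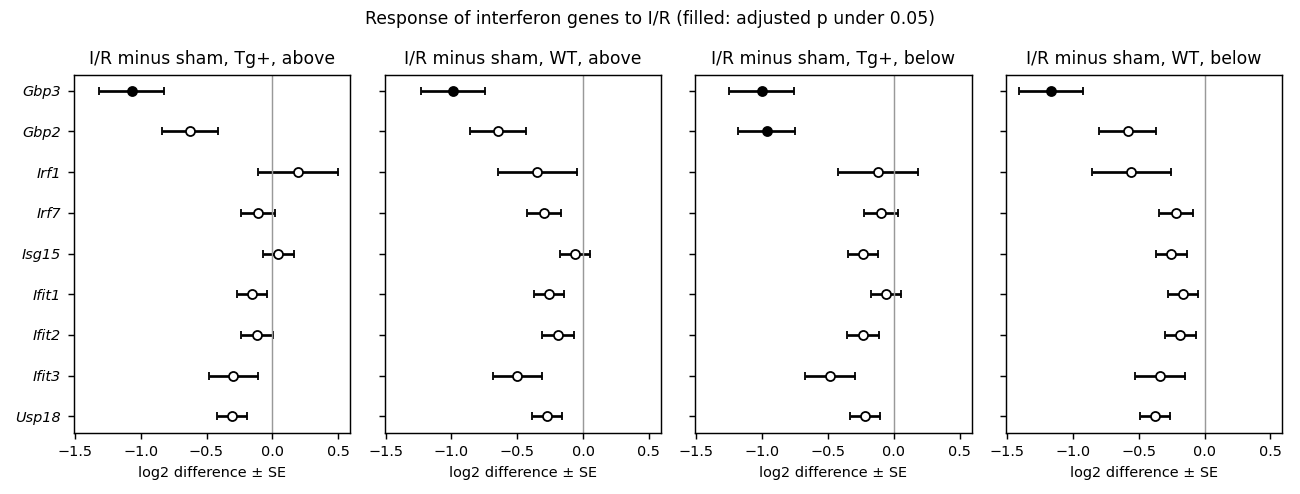
Each panel is 1 comparison of I/R with sham, with the log2 difference on the horizontal axis and the 9 genes down the page, and bars are the standard error of the fit. Filled points passed at an adjusted p under 0.05. Gbp3 passed in all 4 panels (-1.17 to -0.99) and Gbp2 in Tg+ below (-0.97), and the other 7 genes passed in none.

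Counted together, 1 member was called lower after I/R in Tg+ above (8.37% of all features were), 2 in Tg+ below (17.1%), 1 in wild type above (7.31%) and 1 in wild type below (3.46%). In the mean over genotypes and pieces 7 were called lower, where 27.9% of all features were. No member was called higher, while 6.95% of features were in Tg+ above, 15.4% in Tg+ below, 5.97% in wild type above, 2.14% in wild type below and 27.8% in the mean. The members' median difference was -0.15 in Tg+ above, -0.23 in Tg+ below, -0.30 in wild type above and -0.34 in wild type below, beside medians of all features between -0.002 and 0.003. Every I/R array lay below every sham array for 5 members in Tg+ above (23.6% of all features), 5 in Tg+ below (26.3%), 6 in wild type above (17.3%) and 4 in wild type below (13.5%). Irf7, Ifit1, Ifit2 and Usp18 passed the filter on dim probes through sham groups alone, which favours a lower I/R value, so these counts describe the genes and support nothing further. The other 5 passed in at least 1 I/R group as well.

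The fall of Gbp3 and the weak heart channel were set side by side. On 4 I/R arrays the Cy5 share, 37.8% to 38.3%, lay within the sham range. These were Tg+ above replicate 1, wild type above replicate 3 and wild type below replicates 2 and 3. Gbp3 on them was 0.21 to 0.63, below all 12 sham arrays. Gbp2 was 0.38 to 0.68 there, and 3 of the 4 lay below all sham arrays, whereas on the 5 weak arrays it ran from -0.13 to 0.28. Ifit3 ran from 0.10 to 0.43 on the 4 arrays, with 1 of them below all sham arrays, and from -0.056 to 0.23 on the 5 weak arrays.

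Without the weak arrays the Gbp3 difference was -1.07 in Tg+ above (adjusted p = 0.00207), -1.03 in Tg+ below (adjusted p = 0.0515), -0.75 in wild type above (adjusted p = 0.166) and -1.03 in wild type below (adjusted p = 0.0190). The Tg+ below group then held 1 array and the wild-type above group 1, each assumed to vary like the others. Gbp2 was -0.94 in Tg+ below (adjusted p = 0.0254) and passed in Tg+ above (-0.63, adjusted p = 0.0135). Usp18, kept through sham groups alone, also passed in Tg+ above (-0.31, adjusted p = 0.0277). In wild type above Gbp2 gave -0.30 (adjusted p = 0.525). The mean differences were -0.97 for Gbp3 (adjusted p = 5.94e-05) and -0.57 for Gbp2 (adjusted p = 8.74e-04).

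**Figure D3:**
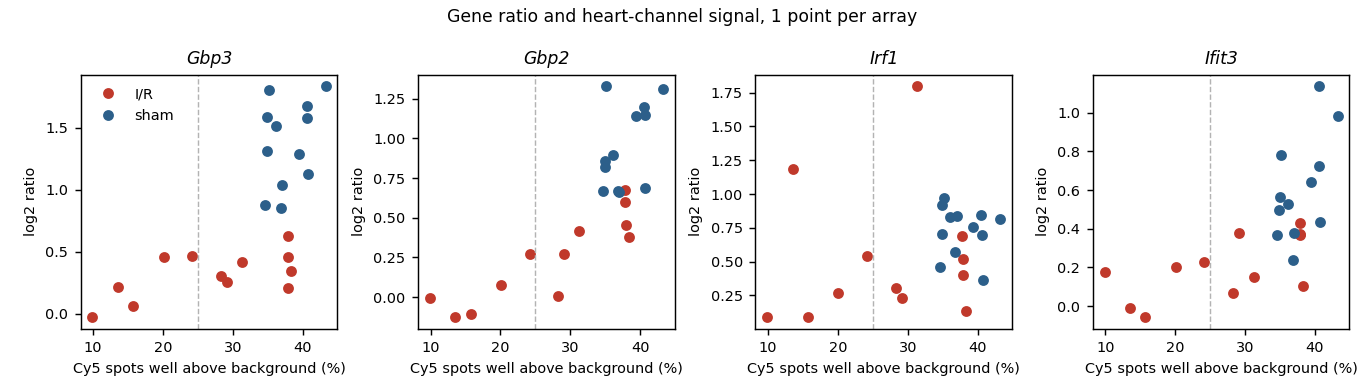
The log2 ratio of Gbp3, Gbp2, Irf1 and Ifit3 (vertical axes) is plotted against the percentage of Cy5 spots well above background (horizontal axes), 1 point per array, red for I/R and blue for sham, with a dashed line at 25%. At shares of 37.8% to 38.3% the 4 I/R values of Gbp3 (0.21 to 0.63) lie under every sham value, while those of Gbp2 (0.38 to 0.68) reach the lowest sham values.

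Slides also held unequal mixes of groups. Within a slide that held 1 array of each kind, the Gbp3 difference was -0.86 in Tg+ above, -1.09 in Tg+ below (a weak I/R array), -0.57 in wild type above (a weak I/R array) and -0.40 in wild type below. Gbp2 differed by -0.73, -0.98, -0.39 and 0.008 in the same order, and Irf1 by 1.04, 0.49, -0.30 and -0.17. With slide as a block the Gbp3 differences were between -1.02 and -0.89 and none of the 4 passed (adjusted p from 0.142 to 0.277). The mean differences still passed for Gbp3 (-0.97, adjusted p = 0.00320) and Gbp2 (-0.67, adjusted p = 0.0125). Usp18, which passed the filter through sham groups alone, had -0.26 (adjusted p = 0.0465). Those of Ifit3 (adjusted p = 0.0524), Ifit2, Ifit1 and Irf7 did not.

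The effect of the transgene on these genes was not detectable. None of the 9 differed between Tg+ and wild type after sham surgery, where 0.035% of features passed above and 0.0262% below, or after I/R, where 0.656% passed above and 2.92% below. No member reached an unadjusted p of 0.05 in these 4 comparisons. The Tg+ minus wild-type differences of the members ran from -0.13 to 0.11 in sham hearts above, from -0.15 to 0.018 in sham hearts below, from -0.094 to 0.41 after I/R above and from -0.36 to 0.38 after I/R below. The largest of these was for Irf1 after I/R above (0.41 ± 0.30, adjusted p = 0.591), and the lowest for Gbp2 after I/R below (-0.36 ± 0.22, adjusted p = 0.281).

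The response to I/R was also compared between genotypes directly, as the Tg+ change minus the wild-type change. For Gbp3 this difference was -0.081 above (95% interval -0.80 to 0.64, adjusted p = 0.991) and 0.16 below (-0.56 to 0.89, adjusted p = 0.832). For Gbp2 it was 0.019 above (-0.62 to 0.66) and -0.38 below (-1.02 to 0.26). Irf1 gave 0.54 above (-0.35 to 1.43) and 0.44 below (-0.46 to 1.33). No member passed, and 0.0175% of features did in each piece. The intervals are wide, and a p that misses the threshold does not show that the genotypes responded alike.

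Position in the heart was compared in the same way. Below minus above the tie, no member passed after I/R in Tg+ (0.481% of features did) or in wild type (0.0175%), nor in either sham genotype (0% of features). None reached an unadjusted p of 0.05. The lowest value was for Gbp2 in Tg+ hearts after I/R (-0.40 ± 0.22, adjusted p = 0.261), where all arrays below lay under all arrays above, as did 10.9% of features. Ordered by group mean, the 4 sham groups of Gbp3 (1.33 to 1.43) and of Gbp2 (0.90 to 1.01) stood above all 4 I/R groups (0.26 to 0.39 for Gbp3 and -0.013 to 0.38 for Gbp2), and neighbours within the sham or the I/R groups differed by less than their SDs, except that Gbp2 in Tg+ I/R below (-0.013 ± 0.10, SD, n = 3) lay under the next group, wild-type I/R above (0.26 ± 0.35), by more than its own SD. For Irf1 the order was mixed, with Tg+ I/R above highest (0.85 ± 0.84, SD, n = 3) and wild-type I/R below lowest (0.21 ± 0.17).

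Other targets of interferon gamma and IRF1 were read from a list of 32 genes, of which 24 were tested. Many of them act in antigen presentation or belong to the GBP and IRG families of GTPases. In the mean over genotypes and pieces 22 fell and 1 rose, with a median of -0.55 beside -0.001 for all features, of which 27.9% fell and 27.8% rose. H2-Aa and H2-Ab1, the chains of MHC class II, fell by 0.62 ± 0.07 (adjusted p = 1.62e-06) and by 0.97 ± 0.12 (adjusted p = 3.13e-06). Cd74, their invariant chain, fell by 0.65 ± 0.08 and the GTPase Gbp7 by 0.51 ± 0.06. H2-Aa and H2-Ab1 passed in each of the 4 single comparisons, Cd74 in all but Tg+ above (-0.43 ± 0.16, adjusted p = 0.0763) and Gbp7 in all but wild type below (-0.35 ± 0.12, adjusted p = 0.0976). The gene that rose was Socs1, an inhibitor of JAK signalling (0.29 ± 0.06, adjusted p = 4.43e-04), and it was named after its value was seen.

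In single comparisons the numbers that fell were 6 in Tg+ above (1 rose), 13 in Tg+ below (1 rose), 7 in wild type above and 3 in wild type below, where 8.37%, 17.1%, 7.31% and 3.46% of all features fell. Without the weak arrays 9 fell in Tg+ above and 3 in wild type below, where 19.7% and 6.66% of features fell. The comparisons in which a group then held 1 array are not counted. The median in the mean contrast, which includes those groups, was then -0.35. With slide as a block 1, 0, 1 and 0 fell in Tg+ above, Tg+ below, wild type above and wild type below. There 1.62%, 1.2%, 1.58% and 0.0875% of all features fell. In the mean contrast 10 fell (median -0.47), where 14.6% of features fell. With Agilent's own log ratios 3, 10, 6 and 1 fell, where 2.94%, 19.9%, 5.4% and 1.41% of features did. Of the 24 genes 8 passed the filter through sham groups alone, as did 2602 of all 11430 features.

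Of 48 other genes of the ISGF3 type 39 were tested, and in the mean 16 fell and 4 rose, with a median of -0.078, where 27.9% of all features fell and 27.8% rose. Their members went both ways. Ifi203, of the family of interferon-inducible DNA sensors, fell in all 4 comparisons and by 0.50 ± 0.04 in the mean (adjusted p = 4.12e-08). The ADP-ribosyltransferase gene Parp14 fell by 0.63 ± 0.09 (adjusted p = 1.94e-05). The nuclear body gene Sp100 fell in wild type above (-0.36 ± 0.09, adjusted p = 0.0130) but not in Tg+ above (0.080 ± 0.089, adjusted p = 0.546), and after I/R above it was higher in Tg+ than in wild type by 0.43 ± 0.09 (adjusted p = 0.0378). The difference between the 2 responses of Sp100, 0.44 ± 0.13, did not pass (adjusted p = 0.342). Ifitm1, a membrane protein that restricts viral entry, rose in Tg+ above (0.45 ± 0.11, adjusted p = 0.00898) and in Tg+ below (0.49 ± 0.11, adjusted p = 0.00262). Its values in wild type, 0.27 and 0.31, did not pass (adjusted p = 0.0903 and 0.0948), and neither did the difference between genotypes (0.18 ± 0.15 in each piece, smallest adjusted p = 0.617). The others that rose were Ifitm2, Tor3a and Lgals9, named after their values were seen, and the Ifitm genes are close paralogs whose probes may share targets.

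In single comparisons 5 of these genes fell and 3 rose in Tg+ above, 4 fell and 1 rose in Tg+ below, 5 fell in wild type above and 2 fell in wild type below, beside the same shares of all features as above. Without the weak arrays 7 fell and 6 rose in Tg+ above, where 19.7% of all features fell and 22.1% rose. In wild type below 5 fell and 0 rose, where 6.66% of all features fell and 5.14% rose. The comparisons in which a group then held 1 array are not counted. With Agilent's own log ratios the median in the mean contrast was -0.60, with a median of all features of -0.19, and 22 fell, where 32.1% of features did. Of the 39 genes 17 passed the filter through sham groups alone.

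**Figure D4:**
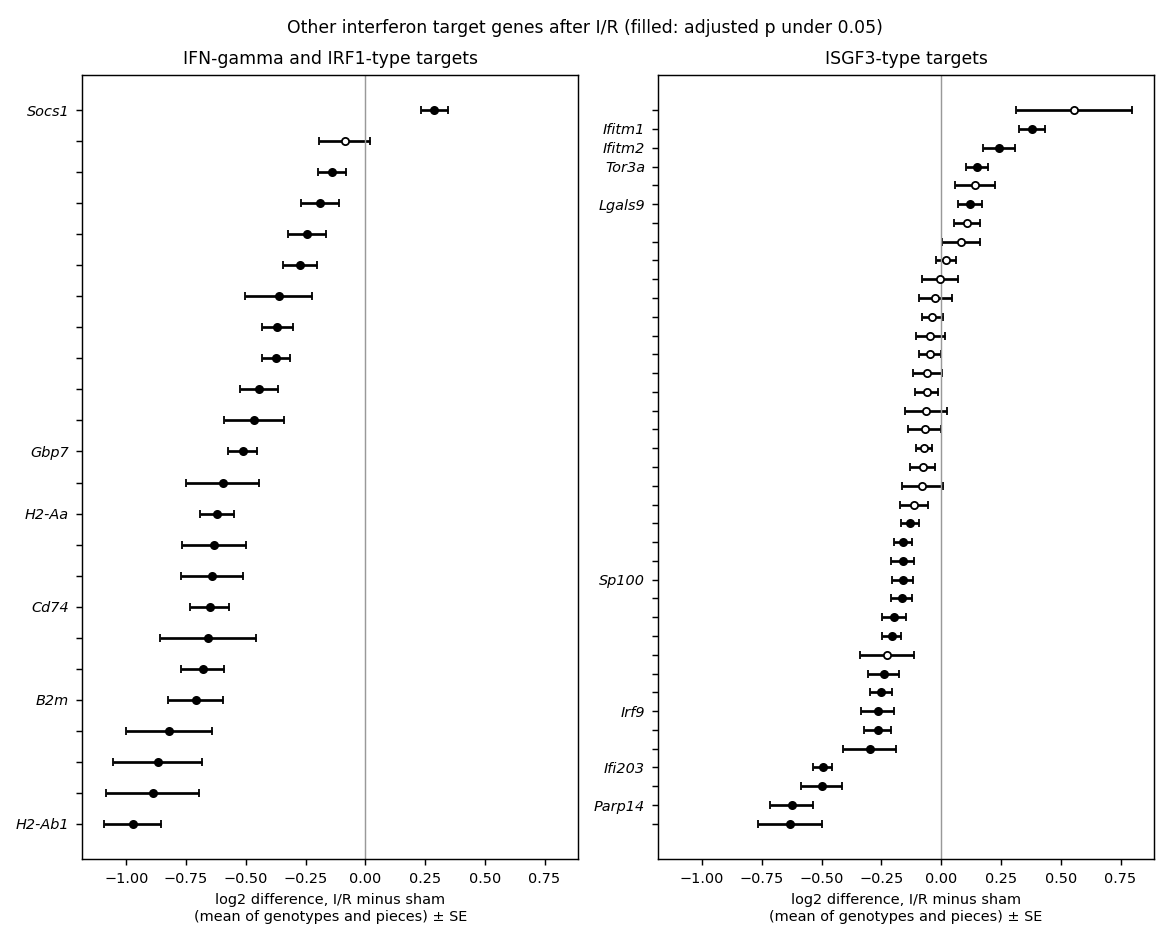
The left panel shows the 24 tested targets of interferon gamma and IRF1 and the right panel the 39 tested targets of the ISGF3 type, with the log2 difference of I/R minus sham, averaged over genotypes and pieces, on the horizontal axis and its standard error as bars. Filled points passed at an adjusted p under 0.05. Genes named in the text are labelled. In the left panel 22 genes lie below 0 and passed, down to H2-Ab1 at -0.97, and in the right panel 16 passed below 0 and 4 above it.

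Upstream of these genes, 5 of 9 interferon ligand and receptor genes were tested. The chains of the interferon gamma receptor went opposite ways. In Tg+ hearts Ifngr2 fell by 0.85 ± 0.23 above (adjusted p = 0.0170) and by 1.08 ± 0.23 below (adjusted p = 0.00221), while Ifngr1 rose by 0.78 ± 0.19 above (adjusted p = 0.0108) and by 0.59 ± 0.19 below (adjusted p = 0.0255). In wild type Ifngr2 gave -0.68 ± 0.23 in each piece (adjusted p = 0.0511 above and 0.0849 below), and Ifngr1 gave 0.19 ± 0.19 above and 0.065 ± 0.19 below, none of which passed. The responses were not shown to differ between genotypes (smallest adjusted p = 0.571 above and 0.491 below). In the mean Ifngr2 fell by 0.82 ± 0.11 (adjusted p = 1.11e-05) and Ifngr1 rose by 0.41 ± 0.10 (adjusted p = 0.00165). Il10rb, a chain shared by the receptors for interferon lambda and interleukin-10 family cytokines, fell in the mean (-0.47 ± 0.08, adjusted p = 1.37e-04). Of 10 signal transducers 3 rose and 3 fell in the mean, near the shares of all features (27.8% and 27.9%). The phosphatase gene Ptpn2, an inhibitor of JAK signalling, rose by 0.46 ± 0.06 (adjusted p = 1.00e-05), and the kinase gene Jak1 fell by 0.29 ± 0.05 (adjusted p = 2.09e-04). Of 11 tested nucleic acid sensors and adaptors 3 rose and 2 fell in the mean, no more than the same shares. Mavs, the mitochondrial adaptor of RNA sensing, fell by 0.67 ± 0.09 (adjusted p = 7.20e-06), and Sting1, the adaptor of DNA sensing, rose by 0.43 ± 0.06 (adjusted p = 1.65e-05). Irf3 rose in Tg+ below (0.64 ± 0.11, adjusted p = 4.57e-04) and was higher there than in wild type after I/R (0.48 ± 0.11, adjusted p = 0.0287), while the difference between the 2 responses, 0.55 ± 0.15, did not pass (adjusted p = 0.316). Of 5 tested other IRF genes only Irf3 rose and only Irf9 fell in the mean.

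In these bulk pieces fewer cells of a type and less RNA per cell cannot be told apart, so marker genes of the cell types are given beside the falls. Of 18 tested macrophage and monocyte genes, 12 rose in the mean and 0 fell, where 27.8% of all features rose and 27.9% fell. Their summed ratio was 22.3 to 26.4 in Tg+ I/R above, against 15.7 to 17.6 in Tg+ sham above, and 18.7 to 26.9 in wild-type I/R above, against 17.5 to 18.6 in wild-type sham above. Below the tie it was 22.1 to 24.9 in Tg+ I/R, against 16.6 to 17.8 in Tg+ sham, and 17.8 to 21.2 in wild-type I/R, against 17.0 to 19.1 in wild-type sham. All 6 tested neutrophil markers rose in the mean. H2-Aa, H2-Ab1 and Cd74, which some macrophages express, fell in the mean, and a link between these changes was not tested.

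The summed ratio of 16 endothelial markers was 16.8 to 24.2 in wild-type I/R above, against 21.0 to 30.4 in wild-type sham above, and 17.9 to 20.1 in wild-type I/R below, against 23.8 to 27.1 in wild-type sham below. In Tg+ it was 24.2 to 26.2 after I/R above, against 21.3 to 22.4 after sham surgery, and 20 to 33.2 after I/R below, against 22.3 to 24.5. The wild-type groups overlapped above the tie and not below it, and the Tg+ I/R arrays above lay over the Tg+ sham arrays. The difference between genotypes was not tested for these sums. Of single endothelial genes the VEGF receptor Kdr fell by 0.87 ± 0.10 in the mean (adjusted p = 2.43e-06). In all 5 of the 16 fell and 3 rose, where 27.9% of all features fell and 27.8% rose, so these counts do not stand out. The same shares apply to the other marker counts in the mean given here. Ventricular muscle markers fell in 6 of 11 cases in the mean and rose in none. Of 14 lymphocyte markers 1 was tested and did not pass, and of 5 markers of plasmacytoid dendritic cells, a strong source of type I interferon, 3 were tested and 1 (Ly6d) rose in the mean. Atrial muscle markers rose in 4 of 5 cases in the mean, fibroblast markers in 8 of 11 and epicardial and mesothelial markers in 4 of 5, and none of them fell. The summed ratio of the atrial markers was 47.6 to 71.6 in Tg+ I/R above, against 6.15 to 33.7 in Tg+ sham above, and 15 to 25.1 in Tg+ I/R below, against 6.03 to 9.2 in Tg+ sham below. In wild type it was 5.5 to 118 after I/R above, against 6.55 to 14.7 after sham surgery, and 4.92 to 9.16 after I/R below, against 5.89 to 10.6. The Tg+ groups did not overlap and the wild-type groups did. The part of these cells in the results was not tested.

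The genes whose 8 group means were most like those of the members, after centring, were named by the root mean square difference of the log2 ratio. For the mean of Gbp3, Gbp2 and Irf1 they were Prox1 (0.0377), a transcription factor of lymphatic endothelium and heart muscle, B2m (0.0522), the light chain of MHC class I, Parp14 (0.0610), Sox7 (0.0620) and Alkbh7 (0.0632). B2m had group means between -0.72 and -0.62 after I/R, against 0.008 to 0.079 after sham surgery. For the mean of the other 6 members they were Atg12 (0.0194), Akap10, Acvrl1, Zfp629 and Cox7a2l (0.0261), none of them on the interferon lists. These small distances go with small group differences, and the points share the 24 arrays and their unequal signal.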

How the data were processed

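Per the file headers, Feature Extraction 9.5.3.1 read the scanner images. The intensity columns as deposited give, for each spot, its mean signal and the median of its local background, without normalization. Agilent's software also wrote the deposited log10 ratio of red over green, already background-subtracted and dye-normalized. The series value table deposited by the authors holds log2 ratio values that follow it, with its centring not stated. Per the labels Cy5 is heart, though a labelling text names Cy3-CTP; 50 ng of RNA was labelled.

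Background was corrected with normexp (offset 50) and ratios by within-array loess in limma 3.58.1 (R 4.3.3). Because of this offset, folds of dim probes are understated. Of 41174 probes 15426 were kept, being well above background in Cy5 on all arrays of at least 1 group; the brightest probe per symbol gave 11430 features. Symbols came from RefSeq accessions (22951 probes matched). No spot was saturated. All 24 arrays entered 1 fit of 8 group means (lmFit, eBayes, 16 residual degrees of freedom), with Benjamini-Hochberg adjustment over all features within each comparison and 0.05 as threshold. The fit was tested on simulated data. Pieces of 1 heart entered as separate arrays, so above and below are not independent. The fit takes them as independent, also in the mean over genotypes and pieces. A bound ("at least N-fold") compares mean Cy5 signals with the dimmest probes still above background, and dye bias can enter it.

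Members and lists were chosen with earlier results of these data known. Every member was named. From each list up to 4 genes past the threshold in any I/R comparison were named, those with the smallest p, or up to 2 if none passed. Same-numbered pieces were compared for pairing. Correlations of their deviations ran from 0.128 to 0.54 in Tg+ and from -0.73 to 0.529 in wild type, and I/R with sham from -0.272 to 0.362. Since signs were mixed in wild type, the numbers were not taken to pair the arrays. Alternatives tried were Agilent's ratio, uncorrected background, Cy5 alone, no filter, blocks for slide, for replicate number and for heart, fits of the compared arrays only, the series table, averaged probes, and leaving out each array. The number of arrays limits the precision.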

Additional observations from a re-analysis of the deposited data

How the results depend on the processing

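No member called with the settings reported changed direction under any alternative run. The number of members called lower after I/R was 1 in Tg+ above, 2 in Tg+ below, 1 in wild type above, 1 in wild type below and 7 in the mean over genotypes and pieces. With slide as a block it was 0 in each single comparison, where 1.62%, 1.2%, 1.58% and 0.0875% of all features were called lower. In the mean it was then 3, where 14.6% of all features were called lower. With the Cy5 channel alone it was 4 in the mean (24.2% of features). With Agilent's log ratio it was 4 in Tg+ below (19.9%) and it was also 4 there with the authors' value table (19.9%). With only the arrays of a comparison it was 3 in Tg+ above (15%) and 0 in wild type below (0%). Without the 5 weak arrays, chosen after seeing the data, it was 3 in Tg+ above (19.7%). Comparisons in which a group then held 1 array are not counted. Leaving out 1 array gave 1 to 2 members in Tg+ above, 0 to 2 in wild type above and 0 to 1 in wild type below. The number was 2 in Tg+ above without Tg+ sham above replicate 2, and 2 in wild type above without wild-type I/R above replicate 3. These counts stand without the shares of all features and only describe the members. In the mean Irf7 kept its call in 23 of 24 such fits and Ifit1 in 20. Over all features, Agilent's log ratio shifted the median by -0.17 (wild type above), -0.21 (wild type below), -0.075 (Tg+ above) and -0.24 (Tg+ below), and the share of higher calls became 51.7% of 333 against 38.3% of 640 in wild type below, and 33.2% of 5489 against 49.8% of 6366 in the mean. With the replicate block (number as a fixed term) the counts of members called were 1, 2, 1, 1 and 7 in the order above. All were lower, where 7.38%, 16.1%, 6.26%, 2.66% and 27.3% of all features were called lower. Features called in the mean went to 6200. With heart as a random replicate block (correlation 0.076) the counts were the same. The shares called lower were then 8.57%, 17.1%, 7.28%, 3.4% and 26.8%. Features called in the mean were 6114 with the heart block. This block takes equal numbers as pieces of 1 heart, which was not established. It therefore cannot show how the dependence between pieces affects the calls. Without the weak arrays 4775 features were called in Tg+ above (1751 with all arrays), 1545 in Tg+ below (3719) and 1349 in wild type below (640). With slide as a block 361, 238, 258 and 25 were called in Tg+ above, Tg+ below, wild type above and wild type below. Outliers were not tested in groups of 3. Dim probes limit the Ifit, Irf7, Isg15 and Usp18 values.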
